A study of Mus musculus with 18 samples.

Results

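Kruppel-like factors are zinc finger transcription factors named after a fly segmentation gene, and 7 of them that leukocytes use (Klf2, Klf3, Klf4, Klf6, Klf9, Klf10 and Klf13) are described here in 3 populations of mouse spleen cells. All probe sets that the platform annotation pairs with 1 of these 7 symbols were taken, whatever their values, which gave 16 of the 36701 probe sets on the U74A, U74B and U74C arrays. IKDC, interferon-producing killer dendritic cells, and PDC, plasmacytoid dendritic cells, were each set by the submitters against cDC, the conventional dendritic cells, as their control. Each has 2 separately prepared samples, each hybridised to the 3 array types, which makes 18 arrays. The sources used here do not give the strain, age and treatment of the mice, any pooling of animals or the sort that defined each population. Nothing in the labels says that the samples came from separate animals, so the p-values measure only the spread between separately prepared samples, part of which may be technical.

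Members of the family share zinc fingers at the carboxyl end that bind GC-rich and CACCC elements, and differ in the part that recruits cofactors. Klf2, Klf4 and Klf6 mostly act as activators, Klf3 is a repressor that binds the CtBP co-repressors, and Klf9, Klf10 and Klf13 can recruit the Sin3a co-repressor. In blood cells, Klf2 is known for holding resting lymphocytes quiescent and for their trafficking, Klf4 for monocyte differentiation, Klf10 (also called TIEG1) for its induction by TGF-beta, and Klf13 (RFLAT-1) for activating the chemokine gene Ccl5 in human T cells.

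The promoters of Klf2, Klf3, Klf6 and Klf13 are shown because the called differences lie in Klf3, Klf6 and Klf13, and because the Klf2 promoter holds a sequence matching a factor family measured below. They are the 250 bases before the annotated start, 5′ to 3′ on the strand of the gene, from RefSeq on build GRCm38.p6, which held 6 of the 7 genes (not Klf10). Capitals mark matches on either strand to CCNCNCCC, the core of the family's own CACCC and GC-box elements, to CCAAT, or to the MEF2 consensus.
Klf3, chr5:64803271-64803520, plus strand: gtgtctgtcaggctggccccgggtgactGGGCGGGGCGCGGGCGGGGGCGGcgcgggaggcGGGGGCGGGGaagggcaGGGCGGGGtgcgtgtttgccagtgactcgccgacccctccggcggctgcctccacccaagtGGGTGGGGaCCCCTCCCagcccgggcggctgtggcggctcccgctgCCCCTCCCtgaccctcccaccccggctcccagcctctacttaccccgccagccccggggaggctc
Klf6, chr13:5861239-5861488, plus strand: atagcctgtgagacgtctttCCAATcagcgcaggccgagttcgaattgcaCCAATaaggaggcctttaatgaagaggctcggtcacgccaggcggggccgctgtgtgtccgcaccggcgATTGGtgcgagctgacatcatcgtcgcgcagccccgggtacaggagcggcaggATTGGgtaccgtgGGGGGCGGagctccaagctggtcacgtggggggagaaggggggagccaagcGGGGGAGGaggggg
Klf13, chr7:63938916-63939165, minus strand: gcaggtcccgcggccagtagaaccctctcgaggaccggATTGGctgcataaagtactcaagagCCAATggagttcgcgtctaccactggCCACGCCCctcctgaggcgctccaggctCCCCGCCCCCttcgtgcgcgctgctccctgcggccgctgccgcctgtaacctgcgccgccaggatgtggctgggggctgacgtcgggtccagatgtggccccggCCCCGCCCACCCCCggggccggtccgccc
Klf2, chr8:72318812-72319061, plus strand: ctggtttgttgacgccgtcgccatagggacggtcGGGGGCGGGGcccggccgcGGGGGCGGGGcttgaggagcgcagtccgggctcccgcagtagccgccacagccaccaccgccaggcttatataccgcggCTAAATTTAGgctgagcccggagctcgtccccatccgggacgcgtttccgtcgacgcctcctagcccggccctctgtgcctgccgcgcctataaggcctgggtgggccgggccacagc

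Counting overlapping matches, CCNCNCCC occurred 10 times in the Klf3 promoter, 2 times in that of Klf6, 5 times in that of Klf13 and 4 times in that of Klf2. It was present in 45.9% of the 32851 RefSeq promoter windows of this length. CCAAT occurred 4 times before Klf6 and 2 times before Klf13, without a match before Klf2 or Klf3, and was present in 33.8% of the windows. The MEF2 consensus had 1 match among these 4 promoters, beginning 118 bases before the start of Klf2, and was present in 2.92% of the windows. Klf4, whose sequence is not printed, had 9 CCNCNCCC matches, and Klf9 had 0 of these and 3 CCAAT matches. A match describes these letters and is no evidence of binding.

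The values are signal intensities that the authors scaled per array to a target of 150. The median signal was 51.7 to 87.3 per array, and precision is limited by the 2 samples per population. A probe set was tested where at least 2 of the 6 arrays reached a signal of 60, which 13 of the 16 did. The other 3 stayed low on all arrays: 161185_i_at for Klf4 at 0.5 to 5.5, 93527_at for Klf9 at 6.3 to 27.7 and 112848_at for Klf13 at 26.2 to 50.6. Log2 differences (estimate ± SE) are on the log2(signal + 16) scale, which understates the change of low signals, and p-values are from limma with Benjamini-Hochberg adjustment over the 23285 tested probe sets and a threshold of 0.05. Levels are not compared between probe sets. As a check of the labels, all 8 tested natural killer (NK) cell markers were higher in IKDC than in PDC and than in cDC, all 7 plasmacytoid markers were higher in PDC than in either other population, and 6 of 8 conventional dendritic cell markers were lower in IKDC than in cDC. Of those 8, 4 were lower in PDC than in cDC. Among them Itgax had no call in IKDC versus cDC and was higher in IKDC than in PDC (2.13 ± 0.31 log2 units, limma adjusted p = 0.00204). Of all tested genes 7.57% were called in IKDC versus cDC, 4.99% in PDC versus cDC and 5.88% in IKDC versus PDC. On U74A the Gapdh signal of the 3' over the 5' probe set, which RNA breakdown raises, was 3.34 and 3.59 in IKDC, 6.0 and 3.19 in PDC, and 4.74 and 4.13 in cDC. The RNA was amplified in repeated rounds, and the part of breakdown in these ratios was not tested.

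Across the 3 comparisons, Klf3 was higher in IKDC than in PDC on 2 of its 3 probe sets, and than in cDC on 1. Klf6 on 1 probe set was lower in both IKDC and PDC than in cDC, and Klf13 on 1 probe set was higher in IKDC than in cDC. In IKDC versus cDC, 3 of the 13 tested probe sets passed, 2 higher and 1 lower, where 5.60% of all tested probe sets passed (2.68% higher and 2.92% lower). In PDC versus cDC 1 probe set passed, lower, against 3.65% of all (1.73% higher and 1.92% lower), and by limma 0 were higher (1 higher and 5 lower at an unadjusted p under 0.05). In IKDC versus PDC 2 passed, both of Klf3 and both higher, against 4.45% of all (2.06% higher and 2.39% lower), and by limma 0 were lower (8 higher and 0 lower at an unadjusted p under 0.05). The median log2 difference over the 13 probe sets was 0.62 in IKDC versus cDC, -0.74 in PDC versus cDC and 0.94 in IKDC versus PDC, beside -0.01, -0.01 and -0.02 over all tested probe sets. The comparisons share samples, and several probe sets measure the same gene, so these are not independent observations. In sorted bulk RNA, fewer cells of a type and less RNA per cell cannot be told apart.

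**Figure D1:**
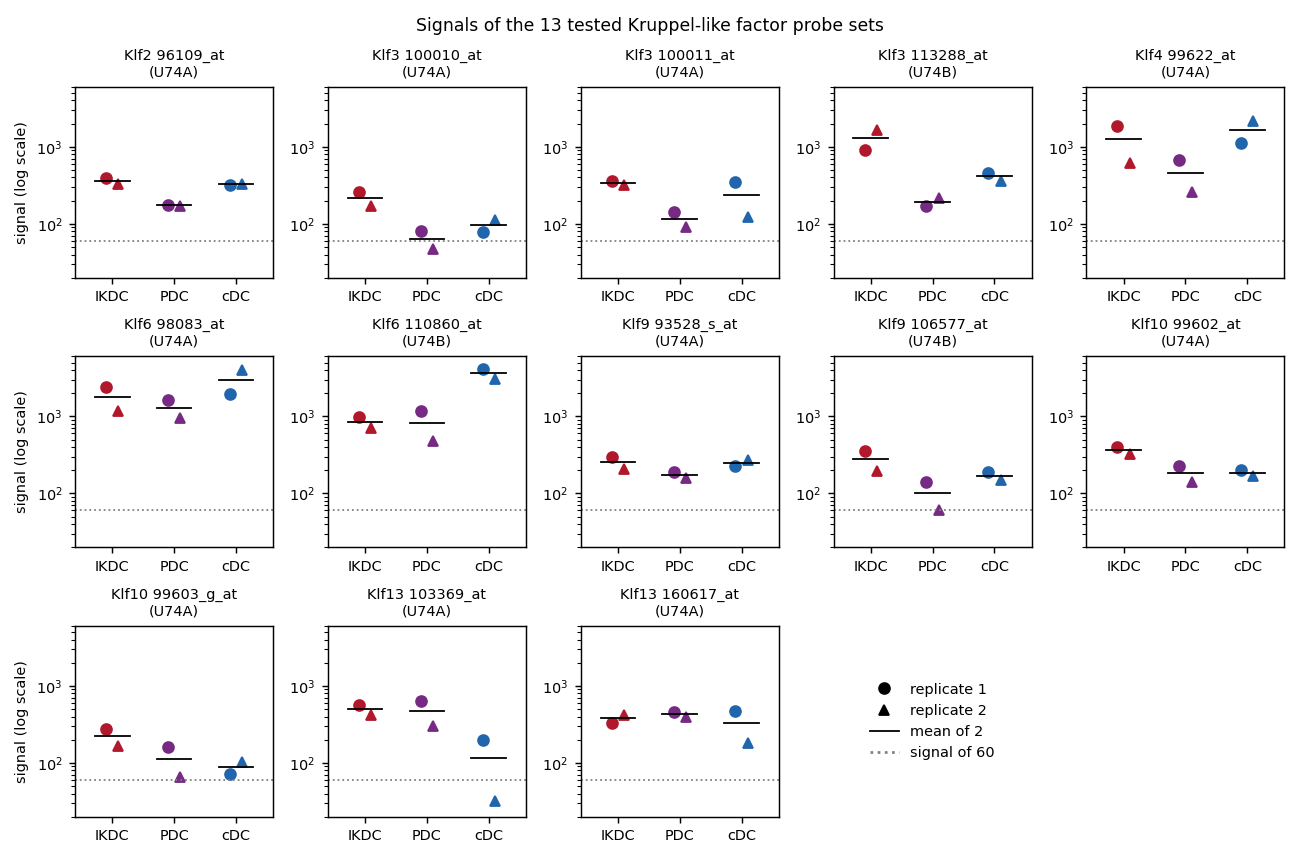
Signal (log axis) of each of the 13 tested Kruppel-like factor probe sets in IKDC, PDC and cDC; circles are replicate 1, triangles replicate 2, bars the mean of 2 and the dotted line a signal of 60. Klf3 113288_at stands highest in the IKDC samples (921 and 1665), and Klf6 110860_at stands highest in the cDC samples (4127 and 3077).

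Klf3, the CtBP-binding repressor also called BKLF, showed the clearest population difference. Probe set 113288_at on U74B had signals of 921 and 1665 in IKDC, 172 and 216 in PDC, and 461 and 363 in cDC. The 3 populations did not overlap, with IKDC highest and PDC lowest. Klf3 exceeded PDC in IKDC by 2.59 ± 0.32 log2 units (6.01-fold, limma adjusted p = 0.0013) and exceeded cDC in IKDC by 1.56 ± 0.32 (2.95-fold, limma adjusted p = 0.0205). PDC and cDC, the neighbours lower in the order, differed by -1.03 ± 0.32 log2 units, which did not pass (limma adjusted p = 0.147). The IKDC versus PDC call held under all 16 alternatives, with limma adjusted p between 0.000926 and 0.0178. The IKDC versus cDC call ended without IKDC replicate 2 (limma adjusted p = 0.197), cDC replicate 1 (0.0851) or cDC replicate 2 (0.148), and without the intensity trend (0.0832).

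Both further probe sets of Klf3, on U74A, ran the same way in their means. Probe set 100010_at had 258 and 169 in IKDC, 80.1 and 46.7 in PDC, and 79.5 and 112 in cDC. The IKDC samples were above all others, and PDC overlapped cDC. Its difference between IKDC and PDC was 1.54 ± 0.37 log2 units (limma adjusted p = 0.0384), a call that ended under 9 of the 15 alternatives that gave a value, among them leaving out IKDC replicate 1 (limma adjusted p = 0.385), IKDC replicate 2 (0.118), PDC replicate 2 (0.126), cDC replicate 1 (0.054) or cDC replicate 2 (0.0601). Probe set 100011_at had 360 and 319 in IKDC, 142 and 89.9 in PDC, and 349 and 124 in cDC. IKDC lay above PDC there, by 1.46 ± 0.42 log2 units (limma adjusted p = 0.0897), which passed with only the 2 groups in the fit (0.0365) and without cDC replicate 1 (0.0378) or cDC replicate 2 (0.0351). In that probe set cDC replicate 1 stood level with IKDC and cDC replicate 2 with PDC.

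Klf6 and Klf4, both induced early in response to stimuli in many cell types, were brightest on average in cDC. For Klf6, probe set 110860_at on U74B had 994 and 701 in IKDC, 1163 and 477 in PDC, and 4127 and 3077 in cDC. Both cDC samples were above every IKDC and PDC sample, and IKDC and PDC overlapped. Klf6 on this probe set fell by 2.07 log2 units in IKDC relative to cDC (-2.07 ± 0.39, limma adjusted p = 0.0122) and by 2.23 in PDC relative to cDC (-2.23 ± 0.39, limma adjusted p = 0.0114), while IKDC versus PDC was 0.16 ± 0.39 (limma adjusted p = 0.917). These calls rest on both cDC samples: without cDC replicate 1 or 2 the limma adjusted p was 0.131 and 0.0702 in IKDC versus cDC, and 0.127 and 0.0756 in PDC versus cDC. They also ended without the intensity trend (0.067 and 0.0738), and IKDC versus cDC ended without IKDC replicate 2 (0.0898).

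The other Klf6 probe set, 98083_at on U74A, did not separate the populations in the same way. It had 2394 and 1190.1 in IKDC, 1617 and 957 in PDC, and 1976 and 3965 in cDC. The IKDC range overlapped both others, and only PDC lay wholly below cDC, by -1.16 ± 0.42 log2 units (limma adjusted p = 0.203). IKDC versus cDC was -0.72 ± 0.42 log2 units there (limma adjusted p = 0.393). The size of the Klf6 difference thus depended on the probe set, and the sources used here do not say which transcript part each one covers.

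Klf4, on 99622_at, had 1885 and 626 in IKDC, 665 and 260.5 in PDC, and 1133 and 2148 in cDC. PDC lay below cDC without overlap, by -1.86 ± 0.53 log2 units, which did not pass (limma adjusted p = 0.0945), and the IKDC samples overlapped both. That difference passed with only the 2 groups in the fit (limma adjusted p = 0.0414) and without IKDC replicate 1 (0.0431) or IKDC replicate 2 (0.0425). IKDC versus cDC was -0.51 ± 0.53 (limma adjusted p = 0.665), and its sign turned without IKDC replicate 2.

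Klf2, the quiescence and trafficking factor of lymphocytes, differed most between PDC and the others without passing the test. Its probe set 96109_at had 398 and 326 in IKDC, 176 and 171 in PDC, and 323 and 329 in cDC. Both PDC samples were lowest, and IKDC overlapped cDC. The difference was 0.99 ± 0.28 log2 units in IKDC versus PDC (limma adjusted p = 0.0785) and -0.85 ± 0.28 in PDC versus cDC (limma adjusted p = 0.15). With adjustment within U74A alone, IKDC versus PDC passed (limma adjusted p = 0.0462).

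Among the Sin3a-recruiting members, Klf13 carried the only call, on 1 of its 2 tested probe sets. Probe set 103369_at had 565 and 425 in IKDC, 642 and 299 in PDC, and 197 and 32.3 in cDC. All IKDC and PDC samples stood above both cDC samples, of which replicate 2 lay under the signal minimum. Klf13 on this probe set was higher in IKDC than in cDC by 2.32 ± 0.58 log2 units (limma adjusted p = 0.0394), and PDC versus cDC was 2.17 ± 0.58 (limma adjusted p = 0.0709). Without cDC replicate 2 the IKDC difference was 1.25 (limma adjusted p = 0.216), and the call also ended without IKDC replicate 1 (0.193) or IKDC replicate 2 (0.109), with a pseudocount of 1 (0.0554), after quantile normalization (0.0814) and without the trend (0.0821). PDC versus cDC passed without cDC replicate 1 (limma adjusted p = 0.00825), which leaves only the cDC sample under the signal minimum, so no size is given for it.

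The second Klf13 probe set, 160617_at, had 331 and 424 in IKDC, 458 and 396 in PDC, and 469 and 183 in cDC. All 3 populations overlapped, and IKDC versus cDC was 0.33 ± 0.39 log2 units (limma adjusted p = 0.708). Ccl5, the gene known as a KLF13 target in human T cells, had 12796 and 11069 in IKDC, 2474 and 893 in PDC, and 1390.3 and 1746 in cDC, and passed in IKDC versus cDC (2.92 ± 0.40 log2 units, limma adjusted p = 0.00127) but not in PDC versus cDC (-0.07 ± 0.40, limma adjusted p = 0.969).

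Klf10 and Klf9 had no call. Klf10, the TGF-beta inducible member, had 406 and 320.1 in IKDC, 229 and 141 in PDC, and 203 and 166 in cDC on 99602_at. Its second probe set, 99603_g_at, had 279 and 164 in IKDC, 162 and 66.1 in PDC, and 71.5 and 104 in cDC. On both, the 2 IKDC samples were above the 4 others, with 0.91 ± 0.32 and 1.17 ± 0.42 log2 units in IKDC versus cDC (limma adjusted p = 0.141 and 0.155). The platform annotation gives both probe sets the same transcript record, and the part each one covers is not given there.

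Klf9, a gene known to be induced by glucocorticoids, had 359 and 196 in IKDC, 143 and 60.7 in PDC, and 188 and 150.2 in cDC on 106577_at. On 93528_s_at it had 299 and 208 in IKDC, 188 and 160 in PDC, and 224 and 268 in cDC. PDC was lowest without overlap on both, with 1.36 ± 0.45 and 0.49 ± 0.30 log2 units in IKDC versus PDC (limma adjusted p = 0.162 and 0.528). Groups without overlap are common with 2 samples each: in IKDC versus PDC 8 of the 13 family probe sets were wholly higher and 0 wholly lower, where 21.7% and 21.9% of all tested probe sets were, 43.7% together. In PDC versus cDC 1 was wholly higher and 7 wholly lower (20.5% and 20.8% of all, 41.3% together), and in IKDC versus cDC 6 and 1 (24.9% and 26.7% of all, 51.6% together).

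**Figure D2:**
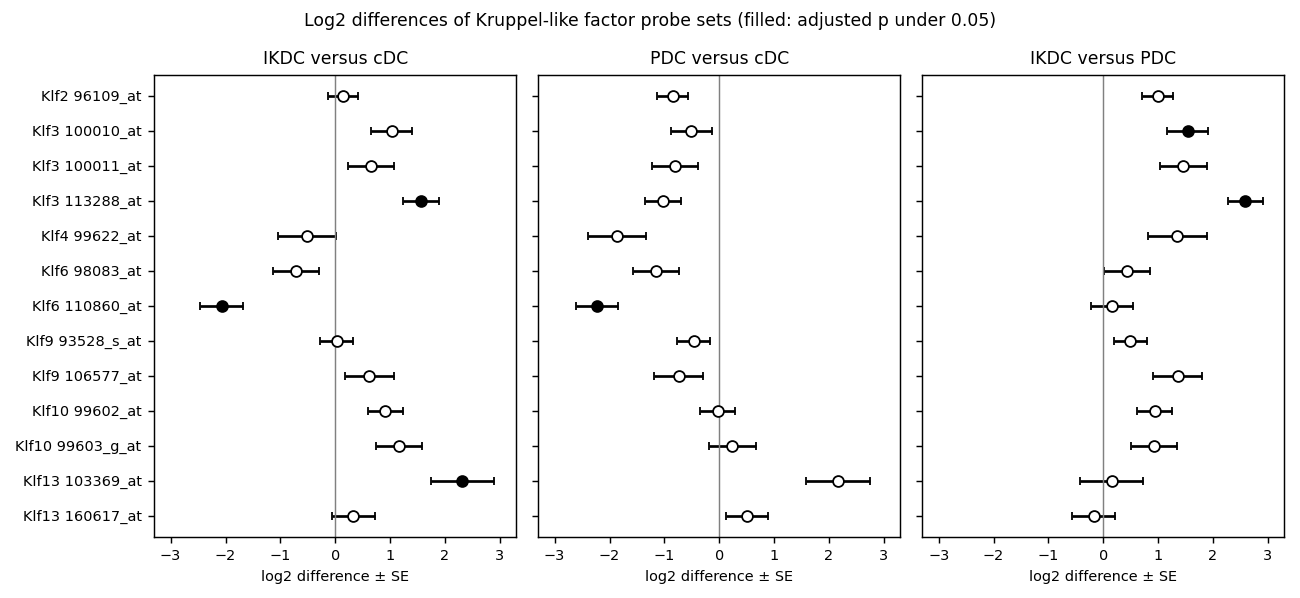
Log2 difference ± SE (limma) of the 13 tested probe sets in IKDC versus cDC, PDC versus cDC and IKDC versus PDC; filled points have an adjusted p under 0.05. Klf3 113288_at lies at 2.59 in IKDC versus PDC, and Klf6 110860_at lies at -2.07 and -2.23 against cDC.

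The members also varied between the 2 samples of a population. In IKDC 11 of the 13 tested probe sets were brighter in replicate 1, with a median ratio of replicate 1 to 2 of 1.42, and in PDC 12 of 13, with a median ratio of 1.69. Of all tested probe sets, 50.03% were brighter in replicate 1 in IKDC and 53.4% in PDC. In cDC 7 of 13 were brighter in replicate 1, with a median ratio of 1.22, where 50.95% of all tested probe sets were. The ratio of replicate 1 to 2 for Klf4 was 3.01 in IKDC, 2.55 in PDC and 0.527 in cDC, and for Klf6 on 98083_at it was 2.01, 1.69 and 0.498. Immediate early genes, which cells switch on within minutes of handling or stimulation, were also mostly brighter in replicate 1 of IKDC (14 of 16 tested, median ratio 1.47) and of PDC (14 of 16, 1.90). In cDC 4 of 16 were, with a median ratio of 0.839, below that of the family. No test was made of these replicate ratios.

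Immediate early genes also differed between the populations, beside Klf6 and Klf4. Of the 16, 1 was higher and 6 were lower in IKDC than in cDC, where 3.50% and 4.07% of all 12193 tested genes were, 7.57% together. In PDC versus cDC 0 were higher by limma (0 also at an unadjusted p under 0.05) and 10 lower, where 2.25% and 2.75% of all genes were, 4.99% together, and in IKDC versus PDC 5 were higher and 0 lower (6 and 0 at an unadjusted p under 0.05), where 2.71% and 3.17% were, 5.88% together. Jun, a subunit of the AP-1 factor, had 565 and 397 in IKDC, 725 and 486 in PDC, and 1598 and 2115 in cDC, and differed by -1.92 ± 0.31 log2 units in IKDC versus cDC (limma adjusted p = 0.00336). Nr4a1, an orphan nuclear receptor gene, had 1592 and 1039 in IKDC, 152 and 134 in PDC, and 2350.0 and 2935 in cDC, and was lower in PDC than in cDC by -4.06 ± 0.29 log2 units (limma adjusted p = 2.9e-05). The part of immediate early gene expression in the Klf6 and Klf4 values was not tested.

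**Figure D3:**
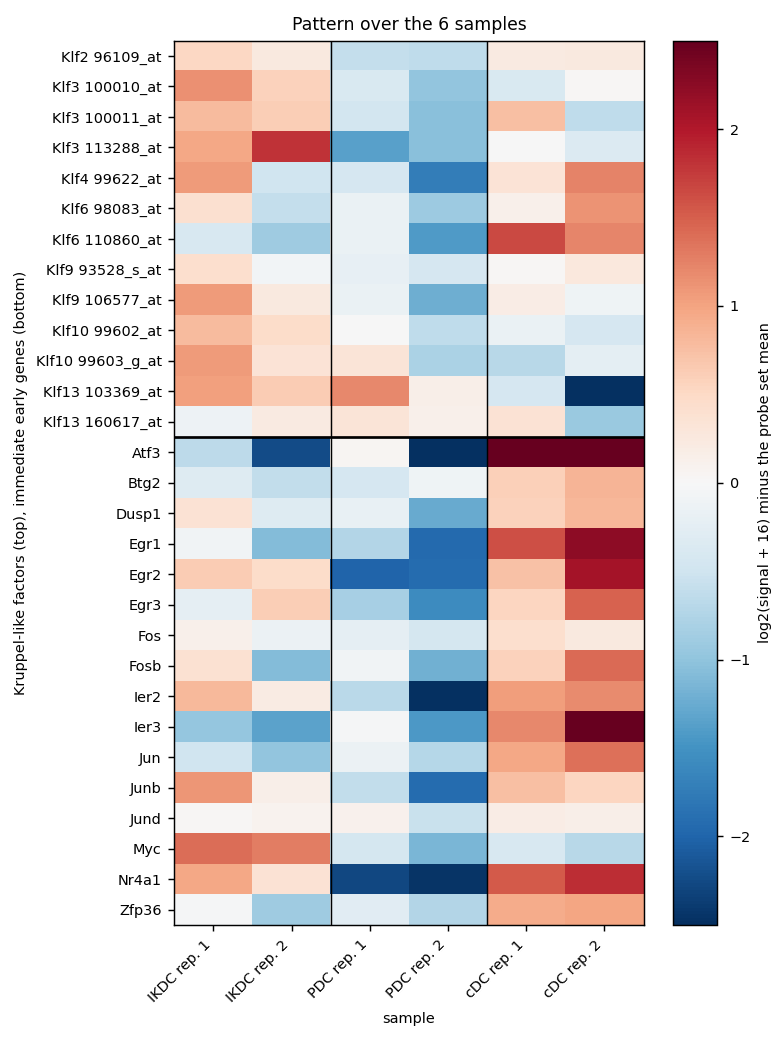
Level of each of the 13 Kruppel-like factor probe sets (above the line) and 16 immediate early genes (below it) in the 6 samples, as log2(signal + 16) minus the mean of the probe set; red is above and blue below that mean. Klf4, Klf6 and most immediate early genes are lowest in PDC replicate 2 or IKDC replicate 2 and highest in a cDC sample, while Klf3 is highest in IKDC.

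Markers of other cells also differed between the populations. Their calls are set against 3.50% of all tested genes higher and 4.07% lower in IKDC versus cDC, and 2.25% higher and 2.75% lower in PDC versus cDC. Of 9 tested monocyte and macrophage markers, 7 were lower in IKDC and 4 lower in PDC than in cDC. Their summed signal in replicates 1 and 2 was 2134 and 3049 in IKDC, 4603 and 5558 in PDC, and 6276 and 6915 in cDC. Such sums are weighted to the brightest genes. Ccr2 ran the other way without a call, with 1517 and 2453 in IKDC, 2008 and 2757 in PDC, and 944 and 1641 in cDC. Cd68 was also higher on average in PDC (1336 and 1944) than in cDC (806 and 846), without a call. Of 5 tested neutrophil markers 2 were lower in IKDC than in cDC. Their sums in replicates 1 and 2 were 311 and 261 in IKDC, 771 and 212 in PDC, and 795 and 1657 in cDC. The part of such cells in the Klf6 and Klf4 differences was not tested. Of 6 tested erythroid markers 3 were higher in IKDC and 3 in PDC than in cDC, with sums of 14735 to 17333 in IKDC, 9976 to 22744 in PDC and 1207 to 2170.1 in cDC. Most of the IKDC and PDC sums was Hba-a1, with 12060 and 13456 in IKDC, 21121 and 8068 in PDC, and 516 and 1348 in cDC. T cell markers summed to 874 to 1281 in IKDC, 998 to 1221 in PDC and 574 to 754 in cDC, with Cd3e, Cd5 and Cd6 under the minimum for testing. Of the 5 tested, 2 were higher in IKDC than in cDC. These were Cd3g of the T cell receptor complex (limma adjusted p = 0.0108) and the co-stimulatory receptor Cd28 (0.000729). Cd28 was also higher in PDC than in cDC (limma adjusted p = 0.00912). Without a call, Cd4 (-0.87 log2 units) and Lat (-0.45) were lower on average in IKDC than in cDC, and Cd3d (0.41) higher. In IKDC versus PDC Cd3g was higher (limma adjusted p = 0.0312) and Cd4 lower (0.0108), where 2.71% and 3.17% of all tested genes were. B cell markers summed to 2398 to 5102 in IKDC, 7101 to 7479 in PDC and 1622 to 1665 in cDC. Most of the PDC sum was Ighm, the IgM heavy chain, with 6273 and 6534 there, against 937 and 1089 in cDC. Of 6 tested, only Ighm was called in PDC versus cDC, as higher (limma adjusted p = 0.000701). Without a call, Ms4a1 (-0.43 log2 units) and Pax5 (-0.64) were lower on average in PDC than in cDC, and Cd79a, Cd79b and Blk higher.

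Endothelial cells, which express Klf2 and Klf4, had 6 of 11 markers tested, with sums of 595 to 675 in IKDC, 1030 to 1292 in PDC and 698 to 938 in cDC, and Tie1, Tek, Nos3, Cldn5 and Emcn under that minimum. Cdh5, the endothelial cadherin, had 18.6 and 3.6 in IKDC, 177 and 168 in PDC, and 4.7 and 9.3 in cDC, and was higher in PDC than in cDC (limma adjusted p = 0.00695) and lower in IKDC than in PDC (0.00781). Vwf, von Willebrand factor, had 10.1 and 15.9 in IKDC, 20.3 and 4.3 in PDC, and 148 and 103 in cDC, and was lower in IKDC (limma adjusted p = 0.0287) and in PDC (0.0316) than in cDC. Without a call, Eng (-0.59 log2 units), Kdr (-1.12) and Pecam1 (-1.08) were also lower in IKDC than in PDC, and Esam was level (-0.0074). Of the 6, 1 was called lower in IKDC than in cDC, where 4.07% of all tested genes were. In PDC versus cDC 1 was higher and 1 lower (2.25% and 2.75% of all). In IKDC versus PDC 1 was lower (3.17% of all). These marker genes were named after their values were seen, and the part of such cells in the family's values was not tested.

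Among 13 other tested Kruppel-like and Sp factor genes, 1 was higher and 1 lower in IKDC than in cDC, where 3.50% and 4.07% of all tested genes were. Klf1, the erythroid member, had 226 and 429 in IKDC, 293 and 207 in PDC, and 116 and 75.0 in cDC, and differed by 1.58 ± 0.37 log2 units in IKDC versus cDC (limma adjusted p = 0.0287), beside the erythroid sums above. Klf11, the closest relative of Klf10, had 1552 and 1172 in IKDC, 2338 and 1707 in PDC, and 3469 and 2913 in cDC, and differed by -1.23 ± 0.27 (limma adjusted p = 0.0229). Neither PDC versus cDC (2 higher and 2 lower at an unadjusted p under 0.05) nor IKDC versus PDC (1 and 0) had a call by limma, where 4.99% and 5.88% of all genes were called. The medians of this list were 0.31, -0.13 and 0.02 log2 units in IKDC versus cDC, PDC versus cDC and IKDC versus PDC, beside 0.012, -0.00047 and 0.0052 over all genes.

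Of 5 tested trafficking genes linked to Klf2, 2 were higher in IKDC than in cDC (3.50% of all tested genes were), 1 in PDC than in cDC (2.25% of all) and 1 in IKDC than in PDC (2.71% of all), and 0 were lower in any by limma (1, 2 and 1 lower at an unadjusted p under 0.05). S1pr5, the sphingosine phosphate receptor by which NK cells leave tissue, had 1381 and 1609 in IKDC, 244 and 143 in PDC, and 582 and 379 in cDC (2.89 ± 0.32 log2 units in IKDC versus PDC, limma adjusted p = 0.00059). S1pr4, a related receptor, had 127 and 243 in IKDC and 16.5 and 9.9 in cDC. With the cDC level set at the minimum of 60, the geometric mean of IKDC was at least 2.93-fold higher (limma adjusted p = 0.00305). S1pr1, which Klf2 activates in T cells, was low and scattered, with 102 and 14.8 in IKDC, 12.5 and 75.0 in PDC, and 77.9 and 119 in cDC. Of 10 upstream regulators, Mef2a carried the 1 call, higher in PDC than in cDC, where 2.25% of all tested genes were. By limma 0 passed in IKDC versus cDC (2 higher and 1 lower at an unadjusted p under 0.05) or IKDC versus PDC (0 and 2). Of all genes 7.57% and 5.88% passed there. Mef2a had 1051 and 1623 in PDC, against 413 and 523 in cDC, a difference of 1.46 ± 0.28 log2 units (limma adjusted p = 0.0203). Mef2 factors can activate Klf2, and the matching sequence lies in capitals in the Klf2 promoter above. Klf2 itself was lower on average in PDC, without a call. A link between Mef2a and Klf2 in these cells was not tested.

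Of 12 cofactor genes, 2 were higher in IKDC than in cDC, where 3.50% of all tested genes were. By limma 0 passed in PDC versus cDC (0 higher and 1 lower at an unadjusted p under 0.05) or IKDC versus PDC (5 and 0), where 4.99% and 5.88% of all genes passed. They were Hdac2, a histone deacetylase of Sin3 complexes (357 and 388 in IKDC, against 159 and 124 in cDC, a difference of 1.31 ± 0.32 log2 units with a limma adjusted p of 0.0375), and Rbbp4, a histone-binding subunit of those complexes (901 and 1235 in IKDC, against 321 and 549 in cDC, a difference of 1.30 ± 0.31 with a limma adjusted p of 0.0343). Ctbp1, a co-repressor of Klf3, had 791 and 908 in IKDC, 641 and 851 in PDC, and 586 and 512 in cDC, without a call. Ctbp2 ran the other way, also without a call, with 67.6 and 92.0 in IKDC, 60.6 and 50.9 in PDC, and 117 and 146 in cDC. At an unadjusted p under 0.05, 4 of the 12 cofactor genes were higher and 1 lower in IKDC than in cDC. Of 10 TGF-beta pathway genes, 1 was higher in IKDC than in cDC (3.50% of all genes) and 2 higher in IKDC than in PDC (2.71% of all), and by limma 0 passed in PDC versus cDC (1 higher and 3 lower at an unadjusted p under 0.05). Smad3, which carries the receptor signal to the nucleus, had 753 and 1145 in IKDC, 42.8 and 223 in PDC, and 128 and 88.0 in cDC (2.95 ± 0.57 log2 units in IKDC versus cDC, limma adjusted p = 0.0148), and Tgfbr2, a receptor chain, differed by 1.25 ± 0.24 in IKDC versus PDC (limma adjusted p = 0.0153). Tgfbr1, another receptor chain, ran the other way without a call (-1.14 ± 0.28 in IKDC versus PDC, limma adjusted p = 0.0501). At an unadjusted p under 0.05, 1 of the 10 was lower in IKDC than in cDC, and 1 in IKDC than in PDC. Of 5 glucocorticoid response genes, 1 was called in each comparison, where 7.57% of all genes were called in IKDC versus cDC, 4.99% in PDC versus cDC and 5.88% in IKDC versus PDC. Fkbp5 had 228 and 333 in IKDC, 165 and 248 in PDC, and 56.8 and 93.2 in cDC, and was higher in IKDC than in cDC by 1.71 ± 0.35 log2 units (limma adjusted p = 0.0147). Sgk1, a kinase gene of that response, had 1296 and 678 in IKDC, 136 and 59.8 in PDC, and 892 and 938 in cDC, and differed by -3.12 ± 0.39 in PDC versus cDC (limma adjusted p = 0.000887) and by 3.15 ± 0.39 in IKDC versus PDC (limma adjusted p = 0.000588).

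The genes most like a member over the 6 samples were taken by the Pearson correlation of log2(signal + 16) among genes on the same array type with a mean signal of at least 200. These r values describe 3 populations of 2 samples and share their arrays. For Klf3 on 113288_at they were Gigyf2 (r = 0.996), Tshz1 (0.98) and Toe1 (0.98), and 25 of 2845 candidates exceeded 0.95. For Klf6 on 98083_at they were the AP-1 gene Fosb (r = 0.971), Etf1 (0.952) and Klf4 (0.939). For Klf13 on 160617_at, its probe set without a call, they were Usp7 (r = 0.996), Tmem250-ps (0.973) and Bag2 (0.966). The called Klf13 probe set 103369_at, taken after its values were seen, had Cops6 (r = 0.992), Sf3b5 (0.989) and Zfp91 (0.983). For the called Klf6 probe set 110860_at, taken after its values were seen, they were Dnase1l3 (r = 0.988), Kdm3b (0.977) and Ap2b1 (0.975), searched among the genes of U74B, whereas 98083_at was searched among those of U74A.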

How the data were processed

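Per the labels, the authors read the arrays with GCOS 1.1.1 at default settings and scaled each to a target of 150 (the submitters' processing notes name MAS 5), so the deposited values are signal intensity on a linear scale, from RNA amplified in repeated rounds. A fold change is relative to the array mean, and no detection calls were used. Population and replicate came from the titles. Probe sets were named through the platform annotation, updated by gene identifier to a GRCm38.p6 table: 29131 of 36701 had 1 symbol, 724 several and 6846 none listed. The 198 control probe sets were left out. Each array type was fitted separately on log2(signal + 16) with limma 3.58.1 in R 4.3.3 (lmFit, eBayes with an intensity trend), all 3 populations in 1 model, over probe sets with a signal of 60 on at least 2 arrays. P-values were adjusted over the 23285 tested. Genes of lists were represented by their brightest tested probe set. From each list the text names examples among up to 4 genes past the threshold with the smallest adjusted p, or the 2 brightest where none passed. S1pr1, Ctbp1, Ctbp2, Itgax, Ccr2 and the named T, B and endothelial cell markers were added after their values were seen. So were the 3 genes nearest to Klf6 on 110860_at and the 3 nearest to Klf13 on 103369_at. The fit was tested on simulated data. Alternatives changed the pseudocount (1, 64), the filter (none, 200), the scaling, the groups, trend and adjustment, added a replicate block or left out each sample. The family members and lists were chosen with earlier results of these data known.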

Additional observations from a re-analysis of the deposited data

How the results depend on the processing

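In IKDC versus cDC, PDC versus cDC and IKDC versus PDC, 3, 1 and 2 family probe sets passed. In IKDC versus cDC the count was 0 by limma without the intensity trend (6 at an unadjusted p under 0.05), and 0 to 3 when 1 sample was left out. In PDC versus cDC it was 0 without the trend (6 at an unadjusted p under 0.05), 2 with adjustment within each array type, 2 with only the 2 groups in the fit, and 0 to 2 when 1 sample was left out. In IKDC versus PDC it was 1 with a filter at 200, 1 without the filter, 1 without the trend, 1 after quantile normalization, and 1 to 2 when 1 sample was left out. With a filter at 200, 100010_at of Klf3 was not tested. Over all probe sets, the count of 1305 in IKDC versus cDC was 593 to 1656 when 1 sample was left out, 849 in PDC versus cDC was 327 to 719, and 1036 in IKDC versus PDC was 493 to 869. The labels do not say that equal replicate numbers mark shared preparations, and the deviations of equal numbers correlated at -0.0862 to 0.235 over probe sets. A sample left alone in its population is assumed to vary like the other populations. With the replicate number as a block, 3 family probe sets passed in each comparison. Of all tested probe sets, 1650 then passed in IKDC versus cDC, 1055 in PDC versus cDC and 1223 in IKDC versus PDC. In the same order, 1001, 582 and 734 of all passed without the trend, and 1198, 829 and 939 after quantile normalization. With adjustment within each array type 1453, 893 and 1096 did.

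Some family differences that did not pass turned sign. When 1 sample was left out, the log2 difference in IKDC versus cDC was -0.00016 to 0.277 for Klf2, -0.039 to 1.34 for Klf3 100011_at, -1.30 to 0.27 for Klf4, -0.22 to 0.27 for Klf9 93528_s_at and -0.31 to 0.97 for Klf13 160617_at. In PDC versus cDC it was -0.35 to 0.29 for Klf10 99602_at, -0.32 to 0.80 for Klf10 99603_g_at and -0.13 to 1.15 for Klf13 160617_at. In IKDC versus PDC it was -0.064 to 0.93 for Klf6 98083_at, -0.47 to 0.79 for Klf6 110860_at and -0.38 to 0.69 for Klf13 103369_at. After quantile normalization Klf9 93528_s_at was at -0.042 in IKDC versus cDC. The cause was not tested. All 6 called differences kept their sign under the alternatives that gave a value.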
